A study of Mus musculus with 6 samples.

Results

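The 32 genes described here encode the redox sensor pair NRF2 and KEAP1, enzymes that make and use glutathione and thioredoxin, peroxide- and superoxide-removing enzymes, and enzymes that supply NADPH. They were taken by name from a list of antioxidant and NRF2-linked genes, and each had to average 10 or more normalised counts across the 6 libraries. All 32 listed genes met this, among 55291 gene symbols in the table of which 13199 reached that average. Nqo1 was the lowest of them, with 146 ± 14.4 normalised counts in control cells (SD, n = 3), so none lay near the limit.

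Gene expression was measured by RNA sequencing of LLC (Lewis lung carcinoma) cells, a mouse lung cancer line grown in culture. The group labelled Calr KO had received Cas9 and a guide RNA against the calreticulin gene by transient delivery of plasmids, and the group labelled control, with the genotype label WT, had received Cas9 with a control guide. Both groups were cultured for 10 days, seeded in 3 wells each without further treatment and collected 48 hours later, and all libraries carry 1 batch label. The labels name no isolation of clones, and the 3 libraries of a group are wells of 1 population of cells, so p-values measure the spread between wells and not between independent knockouts.

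NRF2, the product of Nfe2l2, is a transcription factor that KEAP1 marks for degradation in unstressed cells. Oxidants and electrophiles modify cysteines of KEAP1, NRF2 then accumulates, pairs with small MAF proteins and binds antioxidant response elements in genes of glutathione, thioredoxin, quinone and NADPH metabolism. Control of NRF2 is largely at the protein level, so its own mRNA need not follow its activity, and the levels of its target mRNAs are the common readout. Within the unfolded protein response, the ER kinase PERK is known to act on NRF2, and disulfide formation in the ER makes hydrogen peroxide, which links protein folding to the antioxidant system.

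Calr itself had 4467, 4216 and 4453 normalised counts in the Calr KO libraries and 10711, 10202 and 11047 in the control libraries. Calr thus differed by -1.28 in log2 units (SE 0.04; adjusted p = 7.9e-07 in limma), and transcript remained in every Calr KO library. The libraries summed to between 14040692.5 and 14099984.8 normalised counts, from an estimated 13571131 to 14919040 reads. The cells held the epithelial keratins Krt8 and Krt18 and the mesenchymal Vim, while Epcam, Krt19 and Cldn7 and the lung epithelial Sftpc, Sftpa1, Scgb1a1 and Nkx2-1 were at 0 in all libraries. Lists of 7 macrophage and 7 lymphocyte markers summed to at most 114 and 10.7 normalised counts in any library, with Adgre1, C1qa, Cd3e, Cd4 and Ms4a1 at 0. A list of 6 endothelial markers summed to between 47.6 and 71.6. Of the marker lists, the 7 epithelial genes summed to 4961 to 5241 in Calr KO and 4632 to 4932 in control cells. Krt8 made up most of that sum, with means of 4770 and 4472. The 7 mesenchymal genes summed to 59513 to 61219 in Calr KO and 61555 to 63098 in control cells. Vim made up most of this and was lower in Calr KO, with means of 36379 and 39343. Col3a1 lay the other way, at 21461 and 20527, as did the low Dcn, at 31.9 and 15.5. No gene of either list had a limma adjusted p under 0.05. The mitochondrial share of the counts was 2.89% to 2.97% in Calr KO and 2.78% to 2.80% in control libraries, and the part of these shifts in the values below was not tested. In bulk RNA, fewer cells that express a gene and less of its RNA per cell cannot be told apart.

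The antioxidant response element has the core TGACNNNGC, where N is any base, and it was searched on both strands in the 250 bases before each gene start of RefSeq (GRCm38.p6). Of the 26 members with a sequence, 6 held it, or 23.1%, against 14% of the tested genes that had one. The 6 members are shown because they carry the letters of an NRF2 element close to a RefSeq start. Their mRNA values are set beside the others further on. Each stretch reads 5′ to 3′ on the strand of its gene, and capitals mark the core, which on the opposite strand reads GCNNNGTCA.
Nfe2l2: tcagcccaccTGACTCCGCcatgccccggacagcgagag
Gclm: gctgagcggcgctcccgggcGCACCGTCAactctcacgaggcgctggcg
Txnrd1: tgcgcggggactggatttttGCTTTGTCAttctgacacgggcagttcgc
Prdx1: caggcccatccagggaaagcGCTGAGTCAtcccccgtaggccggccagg
Sod1: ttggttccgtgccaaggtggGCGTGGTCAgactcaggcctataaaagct
G6pdx: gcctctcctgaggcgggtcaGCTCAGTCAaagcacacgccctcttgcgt
These stretches are at chr2:75704875-75704913 (minus strand), chr3:122245403-122245451 (plus), chr10:82859094-82859142 (plus), chr4:116685446-116685494 (plus), chr16:90220686-90220734 (plus) and chrX:74428909-74428957 (minus), in the order printed. The core starts 240, 134, 92, 133, 56 and 57 bases before the RefSeq start of its window. The stretches of Txnrd1 and G6pdx lie inside the genes as placed by GENCODE M21. There Txnrd1 starts at 82833951 on the plus strand and G6pdx at 74429194 on the minus strand. In Prdx1 it overlaps the AP-1 motif TGAGTCA. A match is a description of letters, not a measured binding site, and elements farther from the start were not searched.

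Antioxidant and NRF2-linked mRNAs were at nearly the same level in Calr KO and control cells. None of the 32 genes passed the test over all 13199 tested genes (limma on log2(value + 1), Benjamini-Hochberg threshold 0.05), where 0.28% of all tested genes did (0.197% higher and 0.0833% lower in Calr KO cells). The smallest adjusted p of a member was 0.32, for Gstp1. The log2 differences lay between -0.11 for Hmox1 and 0.29 for Blvrb, with a median of -0.01, against a median of 0.00036 over all tested genes. An unadjusted p under 0.05 was found for 3 members, Gstp1, Blvrb and Pgd, which is 9.38% of the members against a background of 8.88% of all tested genes. The groups did not overlap in 7 members, or 21.9% against a background of 14.8%, with 4 higher in Calr KO cells (background 7.57%) and 3 lower (background 7.28%). Of the 32 differences 13 were above 0, or 40.6%, against 50.1% of all tested genes. The difference between these shares was not tested.

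**Figure D1:**
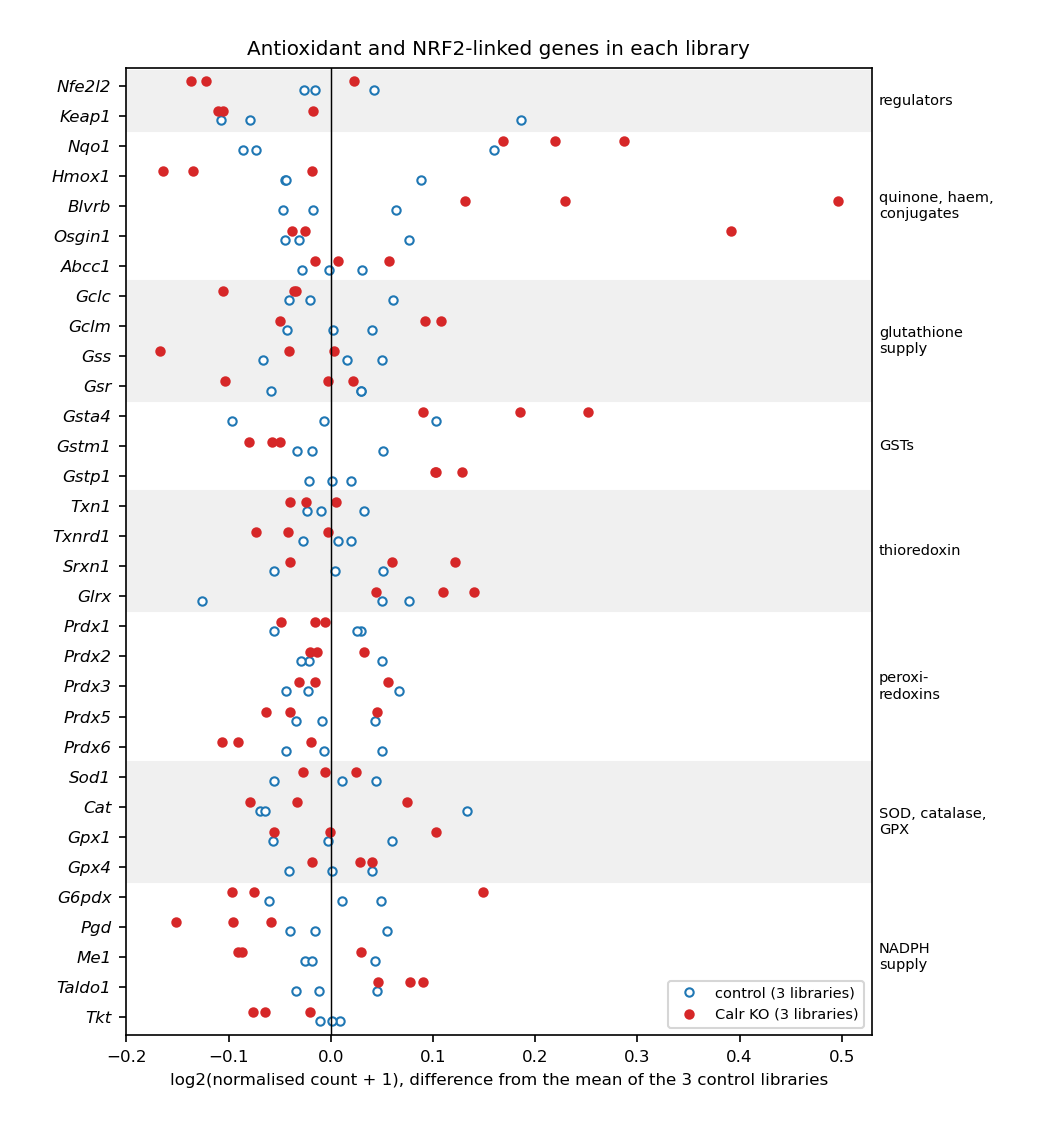
Each row is 1 of the 32 genes, grouped by role, and each point is 1 library, given as log2(normalised count + 1) minus the mean of the 3 control libraries (filled, Calr KO; open, control). In 25 rows the filled and open points overlap, and the points farthest to the right are Blvrb in Calr KO replicate 2 and Osgin1 in Calr KO replicate 1.

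Nfe2l2 (ENSMUSG00000015839.6, chromosome 2, 75675513 to 75704641 on GRCm38, minus strand) had 1938, 1919 and 2143 normalised counts in the Calr KO libraries and 2173, 2087 and 2071 in the control libraries. The third Calr KO library lay among the controls and the other two below them, and the log2 difference was -0.08 (95% interval -0.20 to 0.04, limma adjusted p = 0.74). Keap1 (ENSMUSG00000003308.15, chromosome 9, 21229730 to 21239361, minus strand), the adaptor that marks NRF2 for degradation, had 803, 856 and 806 in Calr KO and 820, 805 and 987 in control cells. The groups overlapped, with control replicate 3 the highest library, and the log2 difference was -0.08 (95% interval -0.27 to 0.11, adjusted p = 0.84). Without control replicate 3 it was 0.02.

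Among genes that handle quinones, haem and conjugates, Nqo1, the quinone reductase widely used as a marker of NRF2 activity, had 177, 163 and 169 normalised counts in the Calr KO wells against 137, 138 and 162 in the control wells. All Calr KO libraries were above the controls, but control replicate 3, at 162, was just below the lowest of them. The log2 difference was 0.22 (95% interval -0.04 to 0.49, adjusted p = 0.64), which did not pass. Hmox1, haem oxygenase 1, an inducible enzyme that opens haem to biliverdin and a classical stress-responsive gene, had 914 ± 49.5 in Calr KO against 984 ± 53.1 in control cells (SD, n = 3), with overlapping groups, a log2 difference of -0.11 (95% interval -0.25 to 0.04) and an adjusted p of 0.71. Its difference was -0.06 without control replicate 1 and -0.15 without Calr KO replicate 1. Blvrb, a NADPH-dependent flavin and biliverdin reductase (chromosome 7, 27447978 to 27466144, plus strand), had 315, 379 and 294 in Calr KO and 265, 260 and 281 in control cells. It showed the largest difference of the 32 genes, 0.29 (95% interval 0.04 to 0.53), with every Calr KO library above every control, and it did not pass (adjusted p = 0.50). Its highest library was Calr KO replicate 2, and without it the difference was 0.18.

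Osgin1, an oxidative stress-induced growth inhibitor, had 387 ± 68.7 in Calr KO against 355 ± 16.6 in control cells (SD, n = 3). Its spread came from Calr KO replicate 1, at 466, while the other Calr KO libraries held 346 and 349. The log2 difference was 0.11 (adjusted p = 0.85), and -0.03 without that library. Abcc1, the exporter MRP1 that pumps glutathione conjugates out of the cell, was the most abundant of this group before scaling to length, with 3561, 3743 and 3618 in Calr KO and 3594, 3676 and 3528 in control cells. Its groups overlapped, and the log2 difference was 0.02 (95% interval -0.07 to 0.10).

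Glutathione is made from glutamate, cysteine and glycine by glutamate-cysteine ligase, with its catalytic subunit Gclc and modifier subunit Gclm, and by glutathione synthetase, Gss. Gclc had 851 ± 23.8 normalised counts in the Calr KO wells against 886 ± 33.1 in the control wells, Gclm 768 ± 45.6 and 741 ± 21.5, and Gss 236 ± 14.4 and 248 ± 10.3 (SD, n = 3). None passed, with log2 differences of -0.06, 0.05 and -0.07 and adjusted p values of 0.83 to 0.88 in limma. Gsr, the reductase that returns oxidised glutathione to its reduced form with NADPH, had 1728, 1612 and 1758 in Calr KO and 1767, 1663 and 1767 in control cells. The groups overlapped, and the log2 difference was -0.03 (95% interval -0.15 to 0.09).

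The glutathione S-transferases, which join glutathione to electrophiles, held the smallest adjusted p. Gstp1 (ENSMUSG00000060803.6, chromosome 19, 4035407 to 4037985, minus strand), the pi-class enzyme, had 5029, 5028 and 5120 normalised counts in the Calr KO wells against 4689, 4614 and 4750 in the control wells. Every Calr KO library was above every control, and the wells of each group differed little. The log2 difference was 0.11 (SE 0.03, 95% interval 0.04 to 0.18, adjusted p = 0.32), 1.08-fold, and it lay between 0.10 and 0.12 when any 1 library was left out. Reads of the near-identical Gstp2 can be shared with Gstp1. Gstp2 was listed at 1.69, 42.1 and 4.27 in Calr KO and 33.8, 1.81 and 25.9 in control cells, which is small beside Gstp1, and Gstp3 was at 0.

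Gsta4, the alpha-class transferase known for the lipid peroxidation product 4-hydroxynonenal, had 455 ± 25.4 in Calr KO against 402 ± 28.1 in control cells (SD, n = 3), a log2 difference of 0.18 (95% interval -0.02 to 0.37, adjusted p = 0.60). Gstm1, of the mu class, lay on the other side. It had 1016, 1000 and 1022 in Calr KO and 1096, 1033 and 1044 in control cells, so that all Calr KO libraries were below the controls, with a log2 difference of -0.06 (95% interval -0.18 to 0.06, adjusted p = 0.79). Reads can be shared within the mu class, where Gstm2 had 654 ± 10.5 and 686 ± 44.5.

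The thioredoxin system reduces protein disulfides and recharges peroxiredoxins. Txnrd1, the cytosolic thioredoxin reductase, had 6950, 7137 and 6801 normalised counts in the Calr KO wells against 7021, 7250 and 7187 in the control wells. The groups overlapped, and the log2 difference was -0.04 (95% interval -0.11 to 0.03, adjusted p = 0.77). Its substrate Txn1, thioredoxin, had 5158 ± 82.3 in Calr KO against 5229 ± 105 in control cells (SD, n = 3). Srxn1, sulfiredoxin, which repairs overoxidised peroxiredoxins and is a well-known NRF2 target, had 1294 ± 72.6 and 1251 ± 46.1, a log2 difference of 0.05 (95% interval -0.09 to 0.18). Glrx, glutaredoxin, which removes glutathione from proteins, had 911 ± 30.8 and 852 ± 63.6, a log2 difference of 0.10 (adjusted p = 0.75), and of 0.04 without control replicate 2, its lowest library at 779.

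The peroxiredoxins, which reduce hydrogen peroxide at a reactive cysteine, did not pass. Prdx1, the abundant cytosolic member, had 7554, 7382 and 7604 normalised counts in the Calr KO wells against 7792, 7348 and 7771 in the control wells, with overlapping groups and a log2 difference of -0.02 (95% interval -0.10 to 0.05). Prdx2 had 2454 ± 49.1 in Calr KO against 2455 ± 74.6 in control cells (SD, n = 3), the smallest difference of the 32 genes. The mitochondrial Prdx3 had 1330 ± 42.9 and 1327 ± 54.5, and Prdx5, which is found in mitochondria, peroxisomes and cytosol, had 1364 ± 54.3 and 1383 ± 37.8. Prdx6, which uses glutathione rather than thioredoxin, had 4625 ± 151 and 4862 ± 161, a log2 difference of -0.07 (95% interval -0.16 to 0.02, adjusted p = 0.65), and its related gene Prdx6b was at 0.

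Enzymes that remove superoxide and peroxides by other means showed small differences. Gpx1, the cytosolic glutathione peroxidase and a selenoprotein, had 3759, 3620 and 4040 normalised counts in the Calr KO wells against 3921, 3617 and 3755 in the control wells, a log2 difference of 0.02 (95% interval -0.10 to 0.13). Gpx4, which reduces lipid hydroperoxides in membranes and holds back ferroptosis, had 2951 ± 63.2 and 2916 ± 82.6 (SD, n = 3). Sod1, the copper-zinc superoxide dismutase, had 1981 ± 35.9 and 1985 ± 69.0, and Cat, the peroxisomal catalase, had 548 ± 30.3 and 553 ± 45.4. The log2 differences of these 4 genes lay between -0.01 and 0.02, and their adjusted p values were at least 0.936 in limma.

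NADPH, which both reductases consume, comes from the pentose phosphate pathway and from malic enzyme. Pgd, 6-phosphogluconate dehydrogenase (chromosome 4, 149149991 to 149166771, minus strand), had 2948, 3144 and 3064 normalised counts in the Calr KO wells against 3239, 3401 and 3186 in the control wells. All Calr KO libraries were below all controls, with a log2 difference of -0.10 (95% interval -0.20 to -0.01), and it did not pass (adjusted p = 0.53). Tkt, transketolase, of the non-oxidative branch, had 5411, 5578 and 5367 in Calr KO and 5693, 5616 and 5664 in control cells, also without overlap, at -0.05 (95% interval -0.12 to 0.02, adjusted p = 0.67). Taldo1, transaldolase of the same branch, lay on the opposite side, with 1930, 1947 and 1887 in Calr KO and 1887, 1814 and 1786 in control cells. Its lowest Calr KO library was almost level with the highest control, and the log2 difference was 0.07 (95% interval -0.03 to 0.17, adjusted p = 0.71).

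G6pdx, glucose-6-phosphate dehydrogenase and the entry step of the pathway, had 1665 ± 161 in Calr KO against 1670 ± 64.1 in control cells (SD, n = 3). Calr KO replicate 2, at 1851, was its highest library, and the log2 difference was -0.01, or -0.09 without that library (limma adjusted p = 0.73). The related retrogene G6pd2 was at 0. Me1, cytosolic malic enzyme, had 1234 ± 59.4 and 1276 ± 33.7, a log2 difference of -0.05.

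**Figure D2:**
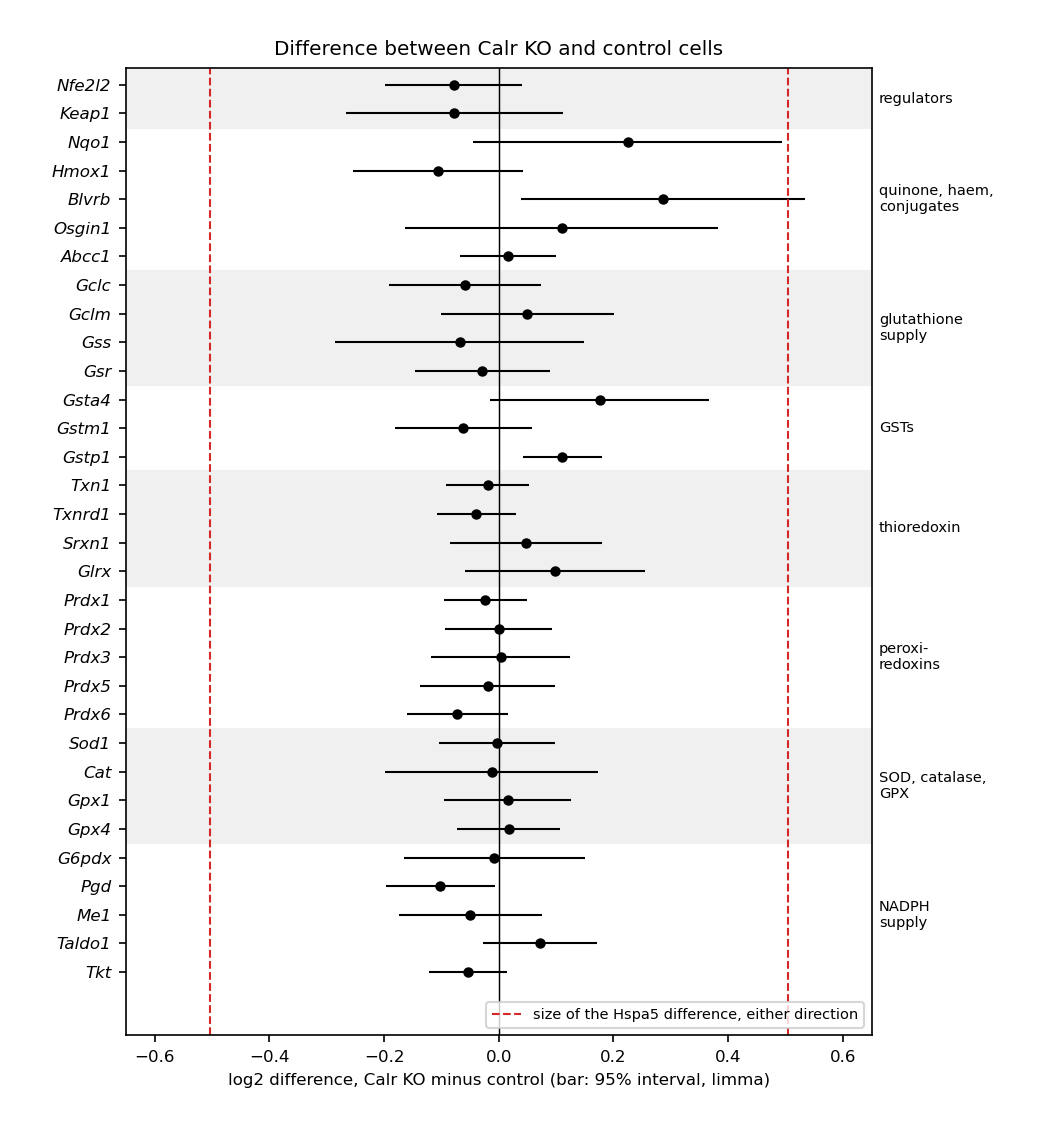
Each point is the log2 difference of 1 gene between Calr KO and control cells, with its 95% interval from limma as a bar, and the dashed lines mark the size of the Hspa5 difference (0.50) in either direction. The upper end of the Blvrb interval, at 0.53, is the only one beyond a dashed line.

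For these wells, the precision of the values sets what size of difference could have gone unseen. As with the p-values, the intervals measure the spread between wells of 1 population per group and not between independent knockouts. The single-gene 95% intervals, which are not adjusted for the number of genes, lay within a 1.3-fold difference in either direction for 29 of the 32 genes. The exceptions were Nqo1, Blvrb and Osgin1, whose upper ends passed it, and all 32 lay within 1.5-fold. For scale, Hspa5, the ER chaperone BiP, had 29459 ± 1697 in Calr KO against 20765 ± 971 in control cells (SD, n = 3) in the same libraries, a log2 difference of 0.50 (limma adjusted p = 0.0014). The intervals of 31 of the 32 genes lay within that size, and that of Blvrb did not. The coefficient of variation between wells had a median of 3.52% in Calr KO and 3.44% in control cells over the 32 genes, and its highest value was 17.8%, for Osgin1 in Calr KO cells. For Nqo1, at an estimated 133 to 187 reads a library, counting error alone gives an SE of 0.09 on the log2 scale, against 0.12 in the fit. For Prdx1, at 7102 to 8061 reads, these were 0.01 and 0.03. Counting error covers only the sampling of reads.

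**Figure D3:**
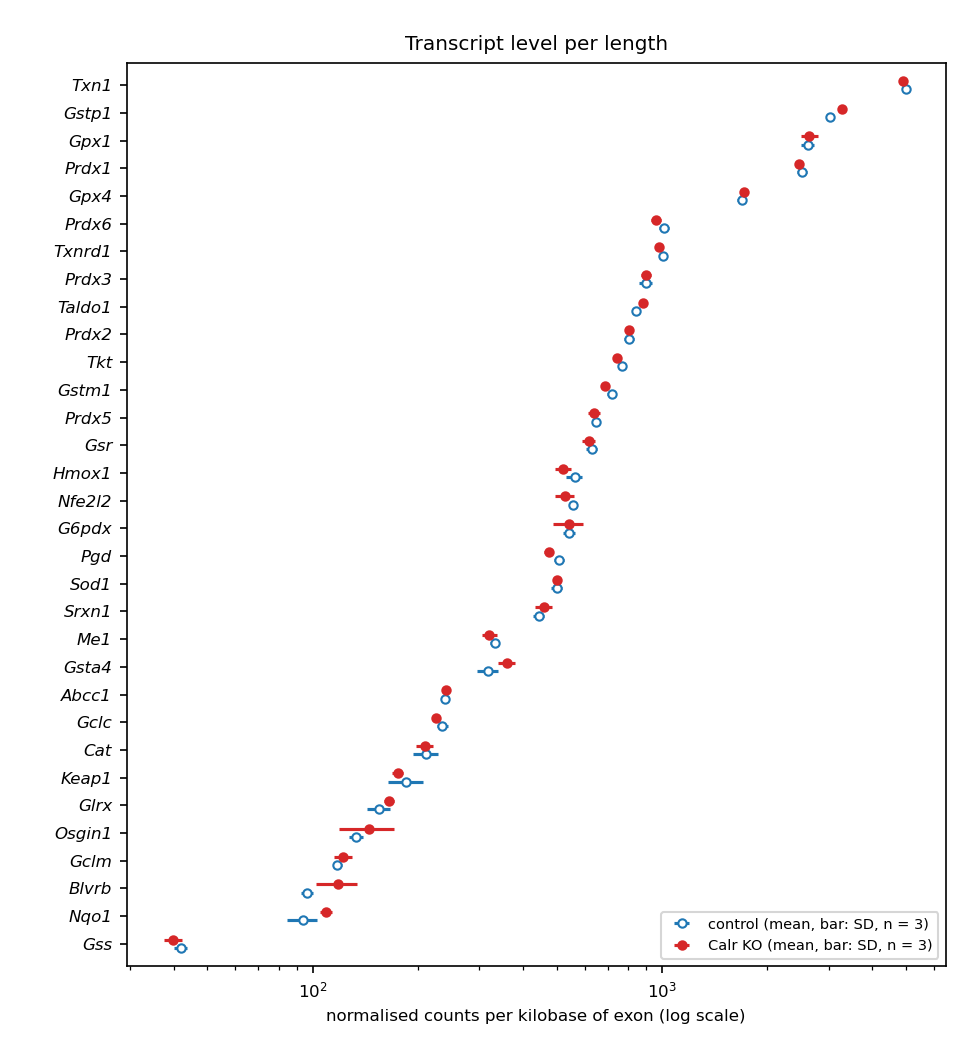
Mean normalised counts per kilobase of exon for the 32 genes on a log axis, in order of the control level, with bars for the SD of 3 libraries (filled, Calr KO; open, control). Both groups follow nearly the same order from Txn1 at the top to Gss at the bottom.

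Levels of different genes were compared per kilobase of exon, using the union of exons in GENCODE M21. This union holds every annotated exon and can be longer than the transcripts present, so the order depends on the annotation. The union was 1051 bases for Txn1 and 3043 for Prdx1. By count alone Prdx1 was above Txn1, at 7637 against 5229 in control cells. Txn1 was highest, at 4975 ± 99.7 normalised counts per kilobase in control cells (SD, n = 3), followed by Gstp1 at 3026 ± 44.1, Gpx1 at 2612 ± 106, Prdx1 at 2510 ± 82.4 and Gpx4 at 1691 ± 47.9. Gpx1 and Prdx1 differed by less than their summed SD, whereas Gstp1 stood apart from both. In Calr KO cells these 5 genes were at 4908 ± 78.3, 3268 ± 33.9, 2642 ± 149, 2469 ± 38.2 and 1711 ± 36.7. Nqo1, at 93.7 ± 9.27, and Gss, at 41.9 ± 1.73, were the lowest in control cells, with Blvrb at 96.5 ± 3.87 next to Nqo1.

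Summed over the 32 genes, the libraries held 72049, 72700 and 72945 normalised counts in the Calr KO wells against 74101, 72139 and 73237 in the control wells, between 0.511% and 0.526% of each library. The groups overlapped, and the ratio of the means was 0.992. By role, the sums overlapped between groups in 7 of 8 classes. The exception was the glutathione S-transferases, at 6526 ± 71.3 in Calr KO against 6144 ± 107 in control cells (SD, n = 3), of which Gstp1 makes up most. These sums are descriptions without a test, since the genes were listed with results of these data known.

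Ratios of functional partners, formed within each library, were also compared. Gclc to Gclm was 1.21, 1.04 and 1.08 in Calr KO and 1.20, 1.21 and 1.18 in control cells, and Keap1 to Nfe2l2 was 0.414, 0.446 and 0.376 against 0.378, 0.385 and 0.476. G6pdx to Pgd had a mean of 0.545 ± 0.04 in Calr KO against 0.511 ± 0.04 in control cells, and Txnrd1 to Txn1 of 1.35 ± 0.05 and 1.37 ± 0.05 (SD, n = 3). Two-sided exact permutation p values were 0.3 to 1, or 0.8 to 1 adjusted over the 4 ratios. With 3 libraries against 3 this test cannot go below 0.1, so it could not reach 0.05 and does not show that the ratios were equal. For Gclc to Gclm, Calr KO replicates 2 and 3 lay below every control library, and Calr KO replicate 1 lay among them.

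The 6 members with an antioxidant response core in the 250 bases before a RefSeq start had differences within the range of those without it. Their log2 differences lay between -0.08 for Nfe2l2 and 0.05 for Gclm, with a median of -0.02, and none had an unadjusted p under 0.05. The 20 members with a sequence that lacked these letters had a median of 0.0014 and a range of -0.10 to 0.29. Gstp1, Blvrb and Pgd were among them. Hmox1, Abcc1, Gclc, Gsr, Gsta4 and Prdx6 had no sequence to search and are in neither group. This is given as a description, with no test.

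The other genes of the pathway, 73 in a fixed list, cover NRF2 partners and turnover, cystine and glutathione supply, further thioredoxin, glutaredoxin, transferase and peroxidase genes, iron and haem genes, conjugation and export, and further NADPH sources. Of these, 65 had a mean of at least 10, and none passed in either direction (0 of 65, smallest limma adjusted p = 0.31), beside 0.28% of all tested genes. An unadjusted p under 0.05 was found for 7, or 10.8% against 8.88%, and 11 had groups that did not overlap, or 16.9% against 14.8%. Of these 11, 8 were higher in Calr KO cells (12.3%, background 7.57%) and 3 lower (4.62%, background 7.28%). The differences between these shares were not tested. The median log2 difference of the 65 genes was -0.01, with 29 above and 36 below 0.

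Fth1 and Ftl1, the ferritin heavy and light chains that store iron, and Sqstm1, the autophagy receptor p62 that binds KEAP1, were the most abundant of these by count. Fth1 had 24765, 24933 and 25114 in Calr KO and 26469, 25703 and 26215 in control cells, with every Calr KO library below the controls and a log2 difference of -0.07 (95% interval -0.11 to -0.02, adjusted p = 0.36). Ftl1 and Sqstm1 had overlapping groups and log2 differences of -0.03 each. The mitochondrial glutaredoxin Glrx2 had 439 ± 38.5 in Calr KO against 351 ± 31.6 in control cells, a log2 difference of 0.32 (adjusted p = 0.38), and Gsto1, an omega-class transferase, had 2174 ± 118 and 1925 ± 80.2, at 0.17 (adjusted p = 0.38) (SD, n = 3). The groups of both genes did not overlap.

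Gstt2, a theta-class transferase near the limit on low values, had 31.0, 19.8 and 31.7 in Calr KO and 9.73, 14.6 and 9.66 in control cells. Its log2 difference of 1.20 (95% interval 0.46 to 1.95, adjusted p = 0.31) was the largest of the 65 and had a correspondingly wide interval. Ugdh, which makes UDP-glucuronic acid for conjugation, had 2833 ± 55.3 and 2576 ± 193, at 0.14 (adjusted p = 0.51). Slc3a2, the shared heavy chain of amino acid transporters, had 3414 ± 245 and 3722 ± 111, at -0.13 (adjusted p = 0.54). Its partner in cystine uptake, Slc7a11, named here after its values were seen, lay on the other side at 540 ± 53.1 and 469 ± 16.9, a log2 difference of 0.20 (adjusted p = 0.55).

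**Figure D4:**
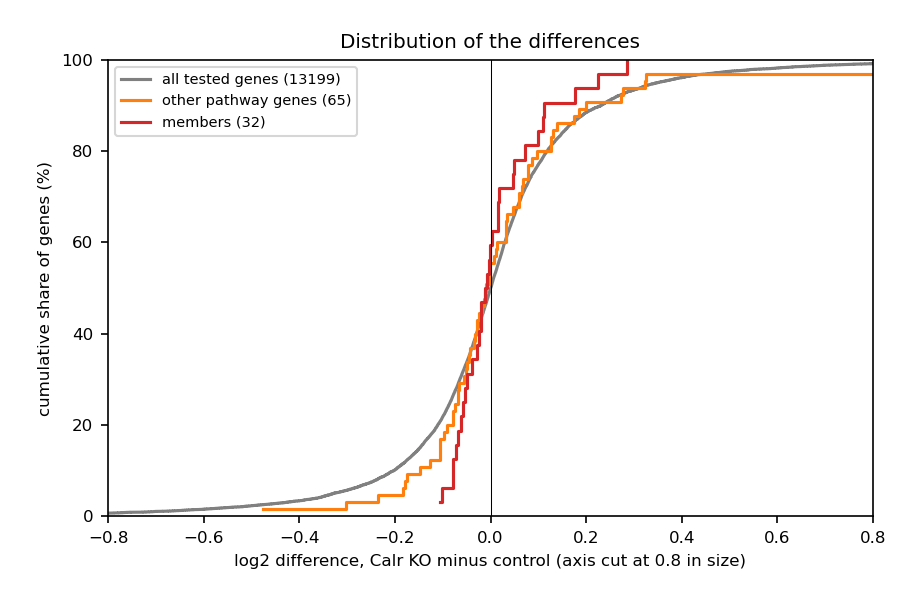
Cumulative share of genes against the log2 difference between Calr KO and control cells for all 13199 tested genes, the 65 other pathway genes and the 32 members. All 3 curves cross near 0, and the curve of the members is the steepest, from -0.11 to 0.29.

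The median size of the log2 difference was 0.05 over the 32 members, 0.07 over the 65 other pathway genes and 0.09 over all tested genes. The median SE was 0.05, 0.08 and 0.10 in the same order. Of the 32 members, 28 lay above the median of the tested genes in mean level, and abundant genes have smaller errors here, so the narrow spread of the members is given beside their errors.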

How the data were processed

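RNA was sequenced from 3 Calr KO and 3 control libraries. The deposited values are a signal, gene counts that the authors normalised with DESeq2, per the labels. Salmon 0.14.1, STAR 2.6.1d and DESeq2 1.34.0 on the mm10 build appear in the submitters' processing notes with no stated role. No source used here gives the annotation release. The worth of 1 read was taken as the commonest low value of each library. Between 79.4% and 82.9% of values under 1.5 estimated reads were whole multiples of 1 read within 0.02. This share partly follows from that choice. At most 4.15% of values of 100 to 1000 reads were whole within 0.02, so no count model was run. Genes with a mean of at least 10 were tested with limma 3.58.1 (R 4.3.3) on log2(value + 1), two-sided, with a mean-dependent variance prior and Benjamini-Hochberg adjusted over 13199 genes. This scale understates differences of low genes. The script was tested on simulated data. Members and lists were chosen with earlier results of these data known. Values of all 6 libraries are given for members with an unadjusted p under 0.05 or groups that do not overlap, for Nfe2l2 and Keap1, and for the member with the highest count in each role. Other members are given by mean, SD or range. Of the other pathway genes, the 6 with the smallest p and the 3 with the highest mean are named. The sum over members was planned with a permutation test and is given without one. Alternatives were other pseudocounts, filters, scalings and variance priors, a replicate block, and leaving out each library. Gene positions and exon lengths are from GENCODE M21 (GRCm38, the assembly of mm10).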

Additional observations from a re-analysis of the deposited data

How the results depend on the processing

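Over 17 alternatives, all planned, none of the 32 members and none of the other pathway genes passed, and the smallest adjusted p of a member lay between 0.29 (mean of at least 50) and 0.59 (single variance prior), all from limma. The count of all genes called was 37, 2 with a single variance prior, and 20 to 34 when 1 library was left out (lowest at 20 when Calr KO replicate 1 was dropped, 21 when Calr KO replicate 3 was, and 22 each for control replicates 2 and 3); the cause was not tested. The count of members with an unadjusted p under 0.05 was 1 without control replicate 1 or 2 and 5 without control replicate 3, against 3. The log2 difference kept its sign in 20 members under every alternative, and in the other 12 it took the other sign in at least 1. The median of the members lay between -0.03 and -0.00011, and that of the other pathway genes between -0.02 and 0.01. The summed level of the members, run under 7 of these (equal totals and each library left out), had a ratio of 0.985 to 0.998. Same-numbered libraries did not deviate together (correlations of -0.06 to 0.0015, with 0 of 6 libraries correlating best with their own number), and with the replicate block 26 genes passed, 0 of them members, with a smallest adjusted p of a member of 0.41. Among the members, counting error was largest for Nqo1 and Gss (SE of 0.09 and 0.08 on the log2 scale), and a 1.3-fold difference lay within the 95% interval of 3 members, Nqo1, Blvrb and Osgin1.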
